A study of Mus musculus with 4 samples.

Results

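The 10 genes described here mark mature neurons or build their filaments, and their RNA was measured in sorted spinal cord cells. They are the RNA-binding protein genes Rbfox1, Rbfox2, Rbfox3 and Celf4, the microtubule gene Map2, the ubiquitin hydrolase gene Uchl1, and Nefl, Nefm, Nefh and Ina of the neurofilament class. They were chosen by name, and all 10 were found among the 42458 rows of the count table. All 10 also had at least 10 counts in total, the minimum for a test, as did 18522 rows in all. The libraries came from 4 wildtype C57BL6/J mice. All had AAV2-CAG-tdT, an adeno-associated virus with the gene of the red protein tdTomato, injected into the cerebral ventricles, and the labels do not state their age. Each library was made from 50 cells of 1 mouse, dissociated from tissue around the central canal and sorted live for tdTomato, an enrichment aimed at CSF-cNs, the cerebrospinal fluid-contacting neurons. CAG is a promoter that acts in many cell types, so the construct itself does not choose neurons. The 4 libraries form a single group, and an uninjected preparation served in the sort as the negative control and was not analysed here. The data therefore give levels and their spread between mice, and no contrast of conditions.

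Rbfox proteins are splicing regulators, and the product of Rbfox3 is NeuN, the nuclear antigen by which mature neurons are commonly recognised. Celf4 binds mRNA and acts on its splicing, stability and translation, mainly in neurons. Map2 protein holds microtubules of dendrites together, Uchl1 is an abundant neuronal enzyme that acts on ubiquitin, and the light, medium and heavy neurofilament chains assemble with alpha-internexin, the product of Ina, into the filaments that set axon calibre. CSF-cNs are GABAergic neurons that line the central canal and have been described as keeping features of immature neurons, with weak or absent NeuN.

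The libraries held 83007030 to 115479640 counts, with a count for 15773 to 17291 genes. Levels are given as CPM, library-size-scaled counts after TMM normalization, and lists of 4 values run from mouse 1 to mouse 4. At these depths a count of 0 allows up to 0.0278, 0.0321, 0.0348 and 0.0334 CPM, the equivalent of 3 counts; such limits cover only counting error. The libraries did not match their label equally well. Pkd2l1, the channel gene that marks CSF-cNs, stood at 17.9, 0.193, 664 and 690 CPM, and the transgene at 0.0463, 0.621, 157 and 1709 CPM. The 9 CSF-cN markers summed to 20.3, 12.9, 941 and 846 CPM, with P2rx2 at no count in any library. Most of the sum in mouse 2 was Tal1, which was at 0.898, 10.3, 10.8 and 14.8 CPM. All 10 microglia markers and 8 of 10 oligodendrocyte markers were called above 10 CPM, as were 36.7% of all tested genes. The microglia markers summed to 53304, 59245, 35143 and 51133 CPM and the oligodendrocyte markers to 15065, 238, 19260 and 459 CPM. The 10 astrocyte markers summed to 1255, 161, 1347 and 299.5 CPM. In mice 1 and 3 most of this was Aldoc (835, 11.6, 846 and 118 CPM) and S100b (298, 4.20, 440 and 10.5 CPM). Slc1a3 was at 115, 122, 52.1 and 155 CPM, and Slc1a2 reached at most 0.290 CPM. Fibroblast markers summed to 11.5, 0.203, 1023 and 116 CPM. Dcn alone was at 1.41, 0.0963, 989 and 108 CPM, and Col1a1 and Col3a1 had no count in any library. Endothelial markers stayed between 12.5 and 23.1 CPM in sum, mostly Pecam1 (18.1, 12.1, 9.04 and 14.6 CPM), and Cdh5 had no count. Oligodendrocyte precursor and sensory ganglion markers stayed below 10 CPM in sum, and the 3 glutamatergic transporter genes had no count. The libraries of mice 1 and 2 were kept, and the count of members called is also given without them. In RNA of pooled cells, fewer cells of a type and less RNA per cell cannot be told apart.

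Among the 10 genes, 2 were called above 10 CPM: Uchl1 and Celf4 (edgeR's quasi-likelihood test, Benjamini-Hochberg adjusted p = 9.4e-04 and 0.049). The same test called 36.7% of all 18522 tested genes, beside which the share of the 10 genes was not high. No member was called below 10 CPM, where the background was 0.664%, and at an unadjusted p under 0.05 the counts were likewise 2 above and 0 below. The median log2 level relative to 10 CPM was -0.31 for the 10 genes and -0.07 for all tested genes. Without mice 1 and 2, a choice made after the data were seen, the count was again 2, both Celf4 and Uchl1, beside a background of 37%. The call of Celf4 rested on mice 3 and 4, as given below. By direct reading, no member reached 10 CPM in each of the 4 libraries, where 36.5% of the tested genes did. Of the 10 genes, 3 were below 10 CPM in every library, as were 41.4% of the tested genes. The background above the level was 40.4% with DESeq2, 35.9% with limma-voom, 32.6% without a filter and 25.5% for a level of 20 CPM. Below the level it was 13.1% with DESeq2, 33.3% with limma-voom, 11.8% without a filter, 0.659% with RLE scaling, and 0.168% and 0.28% in the first and second runs.

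**Figure D1:**
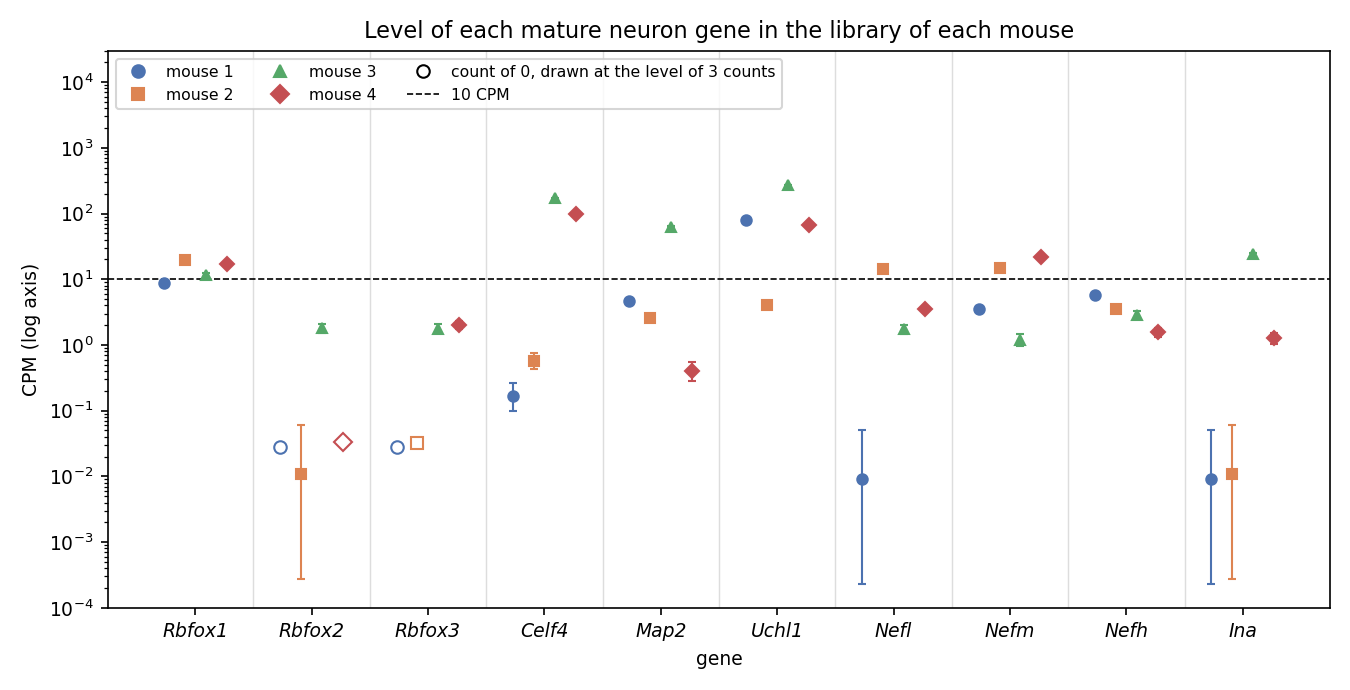
CPM of each of the 10 genes (log axis) in the libraries of mice 1 to 4, with 95% Clopper-Pearson intervals for counting error; an open symbol is a count of 0 drawn at the level of 3 counts, and the dashed line marks 10 CPM. Celf4 spans 0.167 to 171 CPM between mice, while Rbfox1 stays between 8.90 and 19.5 CPM.

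The libraries ranked differently for different members. Mouse 3 held the highest value of 5 of the 10 genes (Rbfox2, Celf4, Map2, Uchl1 and Ina), mouse 2 of Rbfox1 and Nefl, mouse 4 of Rbfox3 and Nefm, and mouse 1 of Nefh. Over all tested genes, the highest value lay in mouse 3 for 29.5% and in mouse 1 for 21.7%. The 10 genes summed to 102, 59.5, 551 and 214 CPM, of which Uchl1 and Celf4 made up most in mouse 3.

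Start-site sequences are shown for 3 members. These are Ina and Map2, of which mouse 3 held most counts, and Rbfox3, the NeuN gene, which had counts in mice 3 and 4 only. Those of Uchl1, which was also highest in mouse 3, and of Rbfox1 are described without being printed. Each window runs 5′ to 3′ on the strand of the gene from 250 bases before to 50 bases after a RefSeq start on GRCm38.p6. RefSeq windows matched 5 of the 10 members, and Rbfox1 had a pair of them. Capitals mark GGGCGG, the GC box bound by Sp1-type factors, or its complement CCGCCC. The Rbfox3 start of this table lies inside the span that GENCODE M21 gives the gene.
Ina, chr19:47014431-47014730, plus strand: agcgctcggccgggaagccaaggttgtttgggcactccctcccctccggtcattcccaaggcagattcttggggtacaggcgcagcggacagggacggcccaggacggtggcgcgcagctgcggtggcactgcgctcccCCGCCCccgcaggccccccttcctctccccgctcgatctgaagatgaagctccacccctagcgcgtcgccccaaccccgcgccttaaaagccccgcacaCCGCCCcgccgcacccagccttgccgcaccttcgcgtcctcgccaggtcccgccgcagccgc
Map2, chr1:66175079-66175378, plus strand: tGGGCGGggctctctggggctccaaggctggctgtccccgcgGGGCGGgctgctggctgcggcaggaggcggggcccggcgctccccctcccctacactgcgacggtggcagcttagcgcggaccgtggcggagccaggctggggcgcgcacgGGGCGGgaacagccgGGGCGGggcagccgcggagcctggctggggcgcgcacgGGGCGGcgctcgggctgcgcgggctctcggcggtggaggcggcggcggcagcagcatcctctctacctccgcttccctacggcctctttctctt
Rbfox3, chr11:118760992-118761291, minus strand: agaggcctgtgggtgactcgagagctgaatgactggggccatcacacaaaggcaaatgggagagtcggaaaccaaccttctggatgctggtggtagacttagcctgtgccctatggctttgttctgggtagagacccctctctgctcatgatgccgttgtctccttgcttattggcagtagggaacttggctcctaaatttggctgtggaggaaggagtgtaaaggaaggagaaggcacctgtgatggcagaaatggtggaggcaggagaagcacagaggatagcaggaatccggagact
The GC box occurred 5 times in the Map2 window, 2 times in the Ina window and 0 times in that of Rbfox3, and on either strand in 35.7% of 32851 windows of this length. G and C made up 77.7% of the Map2, 71.7% of the Ina and 53% of the Rbfox3 window. The Uchl1 window had the GC box 0 times and 50.7% G and C. Both Rbfox1 windows had it 0 times, with 52.7% and 50% G and C. GC boxes were thus not shared by the members that were highest in mouse 3. On both strands, GATAA (the core of sites of GATA factors, 25.4% of windows), TATAAA (13.6%) and TTCAGCACC (the left part of the REST element, 0.371%) were not among the letters of any member's window. These matches describe letters and not bound sites.

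Of the RNA-binding protein genes, Celf4 was the most variable. On the GRCm38 build it occupies bases 25477632 to 25754157 of chromosome 18, minus strand (ENSMUSG00000024268.16). Celf4 had 18, 53, 14749 and 8975 counts, or 0.167, 0.567, 171 and 100 CPM (mean 67.9 ± 83.2, SD, n = 4). Both higher values came from the libraries in which Pkd2l1 and Gad1, the GABA-synthesizing enzyme gene (0.0185, 0.107, 110 and 124 CPM), were high, and the highest was 1026 times the lowest. Its log2 level relative to 10 CPM was 2.76 (SE 0.87; edgeR adjusted p = 0.049). The call was lost without mouse 3 (adjusted p = 0.36) or mouse 4 (0.19), under DESeq2 (0.094) and under limma-voom, where a mean of log values put Celf4 at -1.03 (adjusted p = 0.57).

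Rbfox3, the NeuN gene, was scarce even where CSF-cN markers were high. Its counts of 0, 0, 153 and 182 correspond to 0, 0, 1.77 and 2.03 CPM, where the zeros allow up to 0.0278 and 0.0321 CPM. Counts therefore separated the libraries of mice 3 and 4 from the other two, and the value in mouse 4 was at least 63.2-fold higher than 3 counts would give in mouse 2. Scaled by exonic length, Rbfox3 was at 0.305 and 0.349 CPM per kb in mice 3 and 4, where Celf4 was at 19.9 and 11.7 CPM per kb, which is 65.3 and 33.4 times as much. Its log2 level of -3.40 (SE 2.60) did not separate from 10 CPM (edgeR adjusted p = 0.33). limma-voom called it below 10 CPM (log2 -6.67, adjusted p = 0.023), as it did 33.3% of all tested genes. Rbfox3 spans 118489762 to 118911597 on the minus strand of chromosome 11, with Gm11750 on the opposite strand sharing no exonic base.

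Rbfox2, which is expressed in many tissues as well as in neurons, had at most 1 count in 3 of the 4 libraries. It had 0, 1, 154 and 0 counts, or 0, 0.0107, 1.79 and 0 CPM. Only mouse 3 stood above what 3 counts would give, at 0.219 CPM per kb, so the libraries of mice 3 and 4, both with high Pkd2l1, differed here. Summed fibroblast markers were also highest in mouse 3 (1023 CPM, of which Dcn was 989 CPM), and their part in the value was not tested. edgeR did not separate Rbfox2 from 10 CPM (log2 -4.48, SE 3.10, adjusted p = 0.29), whereas limma-voom called it below (log2 -8.39, adjusted p = 0.0046). With limma-voom, 33.3% of all tested genes were called below 10 CPM.

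Rbfox1 had counts in every library and the smallest spread of the 10 genes. It had 961, 1818, 992 and 1509 counts, or 8.90, 19.5, 11.5 and 16.8 CPM (mean 14.2 ± 4.83, SD, n = 4). The highest value, in mouse 2, was 2.19 times the lowest, in mouse 1, and these were the libraries nearly without Celf4. The level did not differ detectably from 10 CPM (log2 0.50, SE 0.34, edgeR adjusted p = 0.29) but was called above 5 CPM (adjusted p = 0.0055), as were 45.3% of all tested genes. Microglial markers were also present in every library, at 35143 to 59245 CPM in sum, and the part of these or other cells in the Rbfox1 value was not tested. The gene runs from 5885355 to 7411526 on the plus strand of chromosome 16, with an exonic length of 4400 bases.

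Within a mouse, the 3 Rbfox genes were set against each other as log2 ratios of CPM per kb + 0.1. Rbfox1 exceeded Rbfox2 in 4 of 4 mice (4.41, 5.48, 3.09 and 5.29, mean 4.57 ± 1.09, SD, n = 4; two-sided exact permutation p from sign flips = 0.125, adjusted 0.25 over 10 pairs). Rbfox2 had 0, 1 and 0 counts in mice 1, 2 and 4, so the pseudocount sets the size of those ratios, and the mean was 1.97 with a pseudocount of 1 and 7.09 with 0.01. Rbfox1 exceeded Rbfox3 in 4 of 4 mice as well, with Rbfox3 over Rbfox1 at -4.41, -5.50, -2.74 and -3.13 (mean -3.94 ± 1.26, exact permutation p = 0.125, adjusted 0.25). Rbfox3 had no count in mice 1 and 2, and the mean was -1.84 with a pseudocount of 1 and -5.73 with 0.01. Rbfox3 over Rbfox2 was 0.34 in mouse 3. It was 2.17 in mouse 4, where Rbfox2 had no count and the pseudocount sets the size, and in mice 1 and 2 neither gene had more than 1 count, so the pair cannot be read there (mean over 4 mice 0.62 ± 1.04, exact permutation p = 0.5, adjusted 0.63). With 4 mice, 0.125 is the smallest p this test can give, so no pair could pass 0.05.

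**Figure D2:**
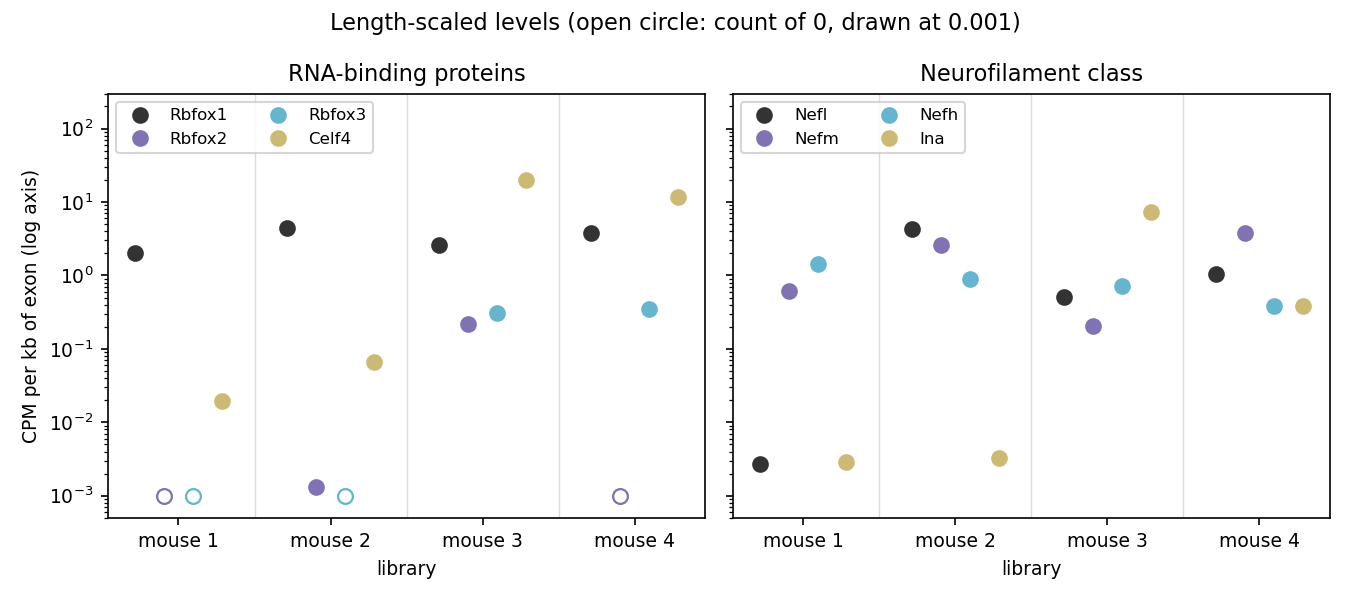
CPM per kb of exon (log axis) of the RNA-binding protein genes (left) and the neurofilament class (right) by mouse, 1 point per library; an open circle is a count of 0 drawn at 0.001. Celf4 is the highest RNA-binding protein gene in mice 3 and 4 at 19.9 and 11.7 CPM per kb and Rbfox1 in mice 1 and 2, and the leading neurofilament gene differs from library to library.

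Map2, the dendritic microtubule gene, had 498, 238, 5463 and 36 counts, or 4.61, 2.55, 63.3 and 0.401 CPM (mean 17.7 ± 30.5, SD, n = 4). Mouse 3 lay far above the others and mouse 4 below all of them, although Pkd2l1 was equally high in both (664 and 690 CPM). The highest value was 158 times the lowest. Its log2 level of 0.83 (SE 0.93) did not separate from 10 CPM (edgeR adjusted p = 0.48) and turned to -2.01 without mouse 3 (adjusted p = 0.40). Map2 occupies 66175273 to 66442583 of chromosome 1, plus strand, and 124 bases of its exons overlap the antisense gene Gm10558. Oligodendrocyte markers summed to 19260 CPM in mouse 3 and 459 CPM in mouse 4, and fibroblast markers, mostly Dcn, to 1023 and 116 CPM. Their part in the Map2 values was not tested.

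Uchl1, the neuronal ubiquitin hydrolase gene, was called above 10 CPM under every setting run. It had 8484, 375, 23470 and 5984 counts, or 78.6, 4.01, 272 and 66.7 CPM (mean 105 ± 116, SD, n = 4). Mouse 2 was low, mice 1 and 4 were close, and mouse 3 was highest, 67.8 times mouse 2. The log2 level was 3.40 (SE 0.45; edgeR adjusted p = 9.4e-04), with adjusted p between 1.1e-04 and 0.024 when 1 mouse was left out and 0.031 with limma-voom. Without mice 1 and 2 the log2 level was 4.14 (adjusted p = 5.1e-04). Mouse 1, with 17.9 CPM of Pkd2l1 and 0.167 CPM of Celf4, still held more Uchl1 than mouse 4, and summed oligodendrocyte markers were 15065 CPM in mouse 1; the part of these cells in the Uchl1 value was not tested. Uchl1 occupies 66676091 to 66687234 of chromosome 5, plus strand. The antisense gene Uchl1os shares 295 exonic bases with it and had 1 count in all.

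Celf4, Map2, Uchl1 and Rbfox3 were next set against Tubb3, the neuronal tubulin gene (1296, 14, 12431 and 3494 counts). Uchl1 exceeded Tubb3 in 4 of 4 mice, by 2.89, 3.83, 1.11 and 0.97 as log2 ratios per kb (mean 2.20 ± 1.39, SD, n = 4; p = 0.125 by exact permutation, adjusted 0.25). Celf4 over Tubb3 was -5.77, -0.12, -1.95 and -0.83 (mean -2.17 ± 2.52, exact permutation p = 0.125, adjusted 0.25). This order depended on the length used, which is 8583 bases for the joined exons of Celf4 and 3995 for its longest transcript. The mean was -1.42 with the longest transcript (adjusted exact permutation p = 0.63) and -0.62 with no length scaling (adjusted 1.0), and -0.97 without mouse 1. On the CPM scale with no length scaling, Celf4 had the higher value in mice 2, 3 and 4 (14749 against 12431 counts in mouse 3). Rbfox3 was below Tubb3 in 4 of 4 at -6.03, -0.85, -7.58 and -5.54 (mean -5.00 ± 2.90, exact permutation p = 0.125, adjusted 0.25), but had no count in mice 1 and 2, which fixes the sign there. Map2 over Tubb3 was -4.10, 0.50, -4.29 and -7.40 (mean -3.82 ± 3.25, exact permutation p = 0.25, adjusted 0.42), and its mean was -1.36 with no length scaling. Tubb3 had only 14 counts in mouse 2, so the ratios of that mouse rest on little.

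The neurofilament genes did not vary together. Nefl, the light chain, had 1, 1354, 149 and 317 counts, or 0.00926, 14.5, 1.73 and 3.53 CPM (mean 4.94 ± 6.53, SD, n = 4). Nefm, the medium chain, had 379, 1382, 103 and 1987 counts, or 3.51, 14.8, 1.19 and 22.1 CPM (mean 10.4 ± 9.82). Both were high in mouse 2, whose library had 18 counts of Pkd2l1. Both were low in mouse 3, where 11 of 15 other pan-neuronal genes and 29.5% of all tested genes were highest. In the library of mouse 2, 2 further neuronal genes had counts that no other library had: Slc18a3, the vesicular acetylcholine transporter gene, at 3.61 CPM and Slc6a5, the glycine transporter gene, at 1.52 CPM. The other 5 of the 6 motor neuron markers, Chat, Slc5a7, Mnx1, Isl1 and Isl2, had no count in any library.

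Nefh, the heavy chain, was low and fairly even, at 5.77, 3.59, 2.87 and 1.55 CPM (mean 3.44 ± 1.76, SD, n = 4). Mouse 1 was highest and mouse 4 lowest, and the highest value was 3.72 times the lowest. Ina, the alpha-internexin gene, had 1, 1, 2062 and 113 counts, or 0.00926, 0.0107, 23.9 and 1.26 CPM (mean 6.30 ± 11.8). Mouse 3 held nearly all of it, and in mice 1 and 2 the single counts lie under the limit for a count of 0. Mouse 3 also had the highest sums of oligodendrocyte (19260 CPM) and fibroblast markers (1023 CPM, mostly Dcn), whose part in the Ina value was not tested. None of the 4 genes was separated from 10 CPM by edgeR: the log2 levels were -1.02 for Nefl (SE 1.35, adjusted p = 0.54), 0.06 for Nefm (SE 0.71, adjusted p = 0.95), -1.54 for Nefh (SE 0.93, adjusted p = 0.24) and -0.67 for Ina (SE 1.68, adjusted p = 0.74).

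The 4 neurofilament genes summed to similar levels in mice 2, 3 and 4 (32.9, 29.7 and 28.5 CPM) and to 9.30 CPM in mouse 1. Per kb of exon, Nefl led in mouse 2 (4.29, against 2.56 for Nefm, 0.898 for Nefh and 0.00330 for Ina), Ina in mouse 3 (7.38, against 0.720 for Nefh, 0.511 for Nefl and 0.206 for Nefm), Nefm in mouse 4 (3.83, against 1.05 for Nefl, 0.389 for Ina and 0.388 for Nefh), and Nefh in mouse 1 (1.44, against 0.607 for Nefm). The Ina over Nefl ratio per kb was 14.4 in mouse 3 and 0.372 in mouse 4, so the 2 libraries with high Pkd2l1 had opposite orders.

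As mean log2 ratios, Nefm over Nefl was 0.71 ± 1.86 (2.78, -0.72, -0.995 and 1.78; exact sign-flip permutation p = 0.5, adjusted 0.63), Nefh over Nefl 0.24 ± 2.67 (3.91, -2.14, 0.42 and -1.23; exact permutation p = 0.875, adjusted 0.875) and Ina over Nefl -0.76 ± 3.72 (0.00, -5.41, 3.61 and -1.23; exact permutation p = 0.75, adjusted 0.83), each SD over n = 4. Each of these pairs was higher in 2 mice and lower in 2, the near-zero value of Ina over Nefl in mouse 1 resting on 1 count of each gene. With 1 count of Nefl in mouse 1 and 1 of Ina in mouse 2, the pseudocount also sets the size of the ratios 2.78, 3.91 and -5.41. The differences within the class were thus no larger than their spread between mice.

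Nefl and Nefm are neighbours on chromosome 14. Nefl runs from 68083863 to 68089095 on the plus strand (ENSMUSG00000022055.7) and lies inside the annotated span of Nefm, from 68082590 to 68124846 on the minus strand (ENSMUSG00000022054.11). Their exons share 1108 bases, 3380 being the exonic length of Nefl and 5782 that of Nefm. The libraries do not keep the strand, so reads of the shared bases cannot be told apart and a part of one value may belong to the other. The values still differed in mouse 1, where Nefm had 379 counts and Nefl 1, and in mouse 4, with 1987 and 317. Ina, on chromosome 19 from 47014698 to 47025327, shares 456 exonic bases with Nt5c2 on the opposite strand (94.5, 55.1, 83.7 and 23.8 CPM). Nt5c2 was abundant in mice 1 and 2, where Ina had 1 count each. Nefh occupies 4938754 to 4948064 of chromosome 11, and GENCODE M21 has no gene that overlaps it.

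Between mice, most members varied more than a typical gene. The SD over 4 mice of log2(CPM + 1) was 3.83 for Celf4, 2.42 for Uchl1, 2.36 for Map2, 2.19 for Ina, 1.64 for Nefl and 1.58 for Nefm, which placed these 6 genes at or above the percentile 90.4 of all tested genes (99.7 for Celf4). Rbfox3 (0.89), Rbfox2 (0.74), Nefh (0.58) and Rbfox1 (0.48) lay lower, and the low mean of Rbfox2 and Rbfox3 limits the SD they can reach. With a pseudocount of 0.1 in place of 1, the SD was 2.09 for Rbfox2 and 2.495 for Rbfox3. Single libraries set several of these values: without mouse 3 the SD was 1.02 for Map2, 0.67 for Ina and 0.0089 for Rbfox2, and without mouse 2 it was 1.10 for Uchl1. Without mice 1 and 2 it was 0.54 for Celf4, 1.42 for Uchl1, 0.52 for Nefl and 0.09 for Rbfox3. The median was 1.61 over the 10 genes, 0.58 over all tested genes and 0.65 over the 13970 genes whose mean reached 1 CPM. Repeat runs of a library, which share its cells and its amplification, differed by at most 0.39 on this scale (Nefh in mouse 4, 54 and 85 counts).

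**Figure D3:**
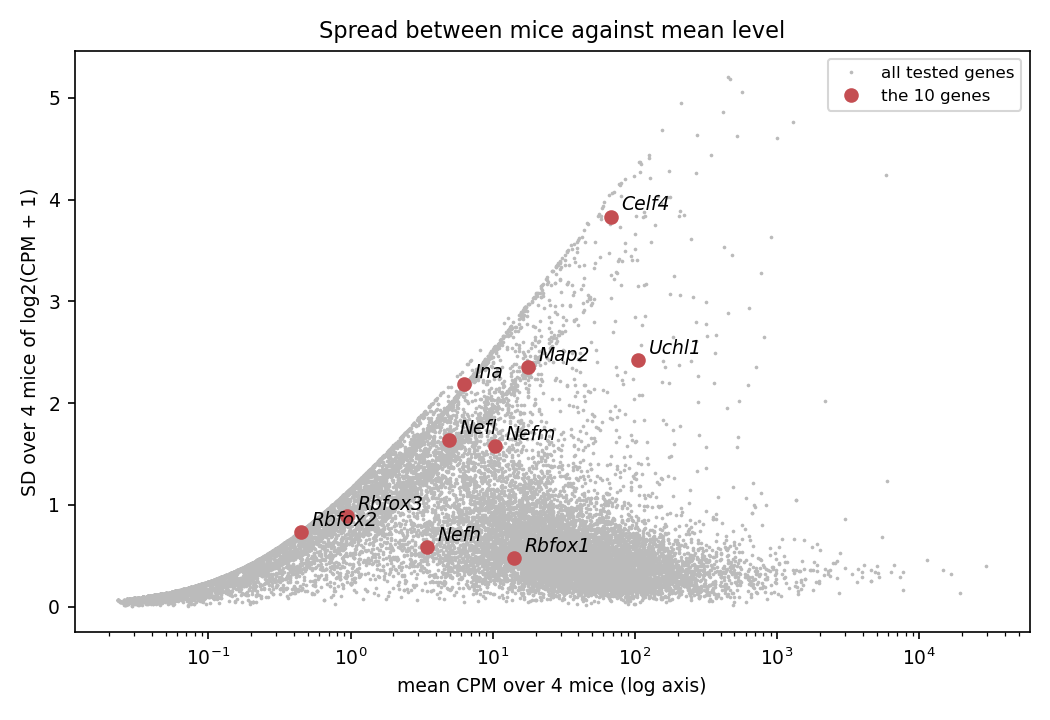
SD over 4 mice of log2(CPM + 1) against the mean CPM (log axis) of each tested gene in grey and of the 10 genes in red. Celf4 lies near the upper edge with an SD of 3.83, and Rbfox1 lies within the dense lower band with 0.48 at a mean of 14.2 CPM.

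For each member whose mean reached 1 CPM, the gene with the nearest profile was sought among 9125 genes averaging 10 CPM or more, by the Euclidean distance of log2(CPM + 1) centred on its mean over the 4 mice. With 4 libraries many genes lie close, so these names are a description. Celf4 was nearest to Qpct, the glutaminyl cyclase gene (0.0278, 0.0535, 129 and 115 CPM, distance 0.57), and Uchl1 to Rab39b, a vesicle GTPase gene (15.5, 0.0214, 45.2 and 9.77 CPM, distance 0.33). Map2 was nearest to Cd59a, a complement inhibitor gene (4.72, 2.99, 45.8 and 0 CPM, distance 0.58), and Ina to Gm3325 (0.593, 0.118, 57.0 and 3.26 CPM, distance 0.79). Nefl was nearest to the zinc finger gene Zfp708 (2.12, 37.8, 8.65 and 11.9 CPM, distance 0.36), and Nefm to the chondroitin sulfotransferase gene Chst11 (3.18, 16.4, 0.997 and 24.4 CPM, distance 0.26). Rbfox1 was nearest to the phosphatase gene Ptpn9 (16.7, 34.5, 21.1 and 29.7 CPM, distance 0.04), and Nefh to Ngly1, an enzyme gene of glycoprotein breakdown (102, 71.0, 56.0 and 38.0 CPM, distance 0.07). No 2 members shared a nearest gene. Nefl and Nefm, 40983 bases apart by their annotated starts, were 2.41 apart on this measure.

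**Figure D4:**
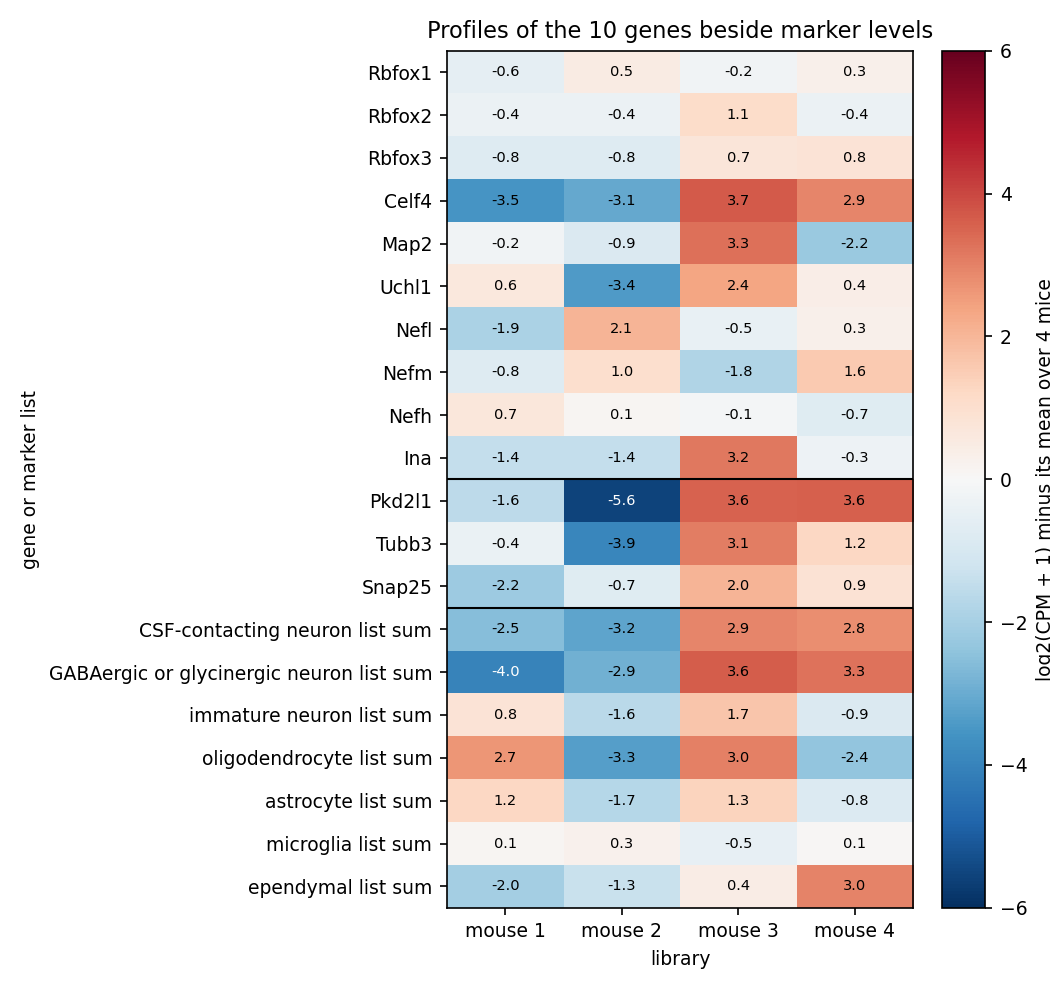
log2(CPM + 1) minus its mean over 4 mice, for the 10 genes (top), 3 neuronal reference genes (middle) and summed marker lists (bottom), with the value in each cell. Celf4 shares its high values in mice 3 and 4 with Pkd2l1 (664 and 690 CPM), Map2 and Ina are high in mouse 3 alone, and Nefl is highest in mouse 2.

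Of 15 other pan-neuronal genes, 6 were called above 10 CPM by edgeR (Snap25, Stmn3, Ndrg4, Nsg1, Rtn1 and Basp1) and 0 below. Their median log2 level was 1.93. The share of all tested genes called above was 36.7%, which is the background for each list that follows. Rtn1, a reticulon gene of the endoplasmic reticulum, was at 29.8, 75.1, 586 and 413 CPM, the synaptic SNARE gene Snap25 at 19.9, 54.7, 385 and 167 CPM, and Ndrg4 at 4.39, 0.0214, 145 and 112 CPM. The highest value lay in mouse 3 for 11 of the 15, beside 29.5% of all tested genes. Basp1, which codes for a growth cone membrane protein, was even, at 167, 195, 157 and 175 CPM. Of the immature neuron list, Dcx, which codes for doublecortin, was at 0, 0, 13.0 and 10.5 CPM and the transcription factor gene Sox11 at 0.00926, 0, 17.4 and 5.77 CPM. Per kb of exon, Dcx was at 1.03 and 0.831 and Sox11 at 2.09 and 0.694 CPM in mice 3 and 4, against 0.305 and 0.349 for Rbfox3. The rest of the immature neuron list differed in profile. Sox4 was at 50.2, 62.2, 17.7 and 31.1 CPM and Stmn1 at 552, 49.5, 1027 and 140 CPM. Igfbpl1 and Neurod1 had no count in any library.

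Of 13 other neuronal RNA-binding and splicing genes, 4 were called above 10 CPM (Elavl4, Celf2, Ptbp2 and Khdrbs3), beside 36.7% of all tested genes. The median log2 level of the list was -0.19. Celf2 was at 273, 286, 154 and 209 CPM, the splicing repressor gene Ptbp2 at 49.7, 30.2, 87.4 and 79.9 CPM, Elavl4, which codes for the neuronal RNA-binding protein HuD, at 10.3, 7.98, 58.5 and 45.9 CPM, and Khdrbs3 at 20.9, 19.8, 17.4 and 25.7 CPM. Elavl4 followed Celf4 in having its higher values in mice 3 and 4, and Celf2 had its lower ones there. Of 8 tested broadly expressed relatives, 7 were called above, among them the muscleblind gene Mbnl1 (560, 529, 293 and 522 CPM) and Elavl1 (112, 125, 104 and 94.8 CPM), with a median of 3.42.

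Of 16 other genes of microtubule-associated and tubulin-binding proteins, 8 were called above 10 CPM, beside 36.7% of all tested genes. Their median log2 level was 1.54. As with Map2, 11 had their highest value in mouse 3, beside 29.5% of all tested genes. Map1b, a microtubule-associated protein gene of growing axons, was at 152, 10.1, 819 and 301 CPM, and in mouse 4, where Map2 was lowest, it was above its values in mice 1 and 2. The stathmin gene Stmn1 was at 552, 49.5, 1027 and 140 CPM and Stmn4 at 160, 2.98, 224 and 10.8 CPM. Both had higher values in mice 1 and 3, the libraries rich in oligodendrocyte markers. The part of oligodendrocytes in these values was not tested. Map4, the widely expressed member, was at 52.1, 143, 125 and 127 CPM.

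Other cytoplasmic intermediate filament genes were low. Of 8 tested genes 0 were called above and 0 below 10 CPM by edgeR, beside 36.7% and 0.664% of all tested genes. Their median log2 level was -2.96. Vimentin, Vim, was at 2.67, 4.01, 15.5 and 34.9 CPM, the astrocyte filament gene Gfap at 3.91, 23.4, 7.79 and 0 CPM, Synm at 9.19, 0.0963, 16.1 and 0.925 CPM and the nestin gene Nes at 0.0185, 7.72, 5.44 and 1.47 CPM. Summed ependymal markers (1.71, 3.39, 14.0 and 85.4 CPM) were, like Vim, higher in mice 3 and 4, and their part in the Vim values was not tested. Prph, the filament gene of peripheral and motor neurons, had 14 counts in mouse 1 and none in the others.

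The 7 listed ubiquitin and other ubiquitin hydrolase genes were all called above 10 CPM, with a median log2 level of 3.17. The nearest relatives of Uchl1 differed from it in profile: Uchl3 was at 86.0, 26.5, 63.5 and 11.1 CPM and Uchl5 at 97.4, 44.6, 67.6 and 52.0 CPM, without the peak in mouse 3. Of 12 genes of axonal cytoskeleton partners, with a median log2 level of 0.72, 4 were called above, beside 36.7% of all tested genes. The 4 were Bin1, Dst, Ank2 and Kif5b. These were even between mice: Bin1, a membrane-bending protein gene, was at 372, 522, 303 and 374 CPM, the kinesin gene Kif5b at 97.0, 109, 77.2 and 103 CPM and the ankyrin gene Ank2 at 76.5, 63.5, 109 and 77.4 CPM.

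**Figure D5:**
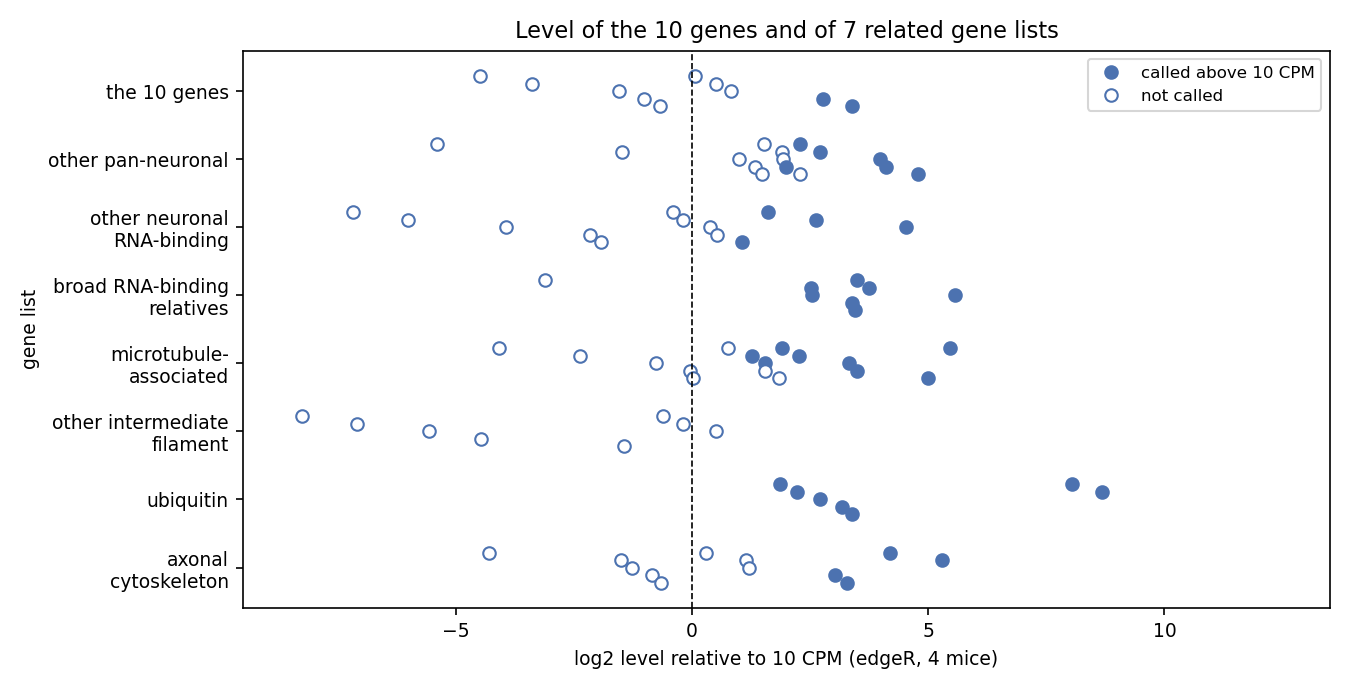
log2 level relative to 10 CPM (edgeR, 4 mice) of each tested gene in the 10-gene set and 7 related lists; filled points were called above 10 CPM and the dashed line marks that level. The 10 genes have 2 filled points, the ubiquitin list 7 of 7 and the other intermediate filament genes 0 of 8, beside 36.7% of all tested genes.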

How the data were processed

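RNA of 50 sorted cells from each of 4 mice was sequenced after SMART-Seq v4 cDNA synthesis with 11 PCR cycles and Nextera XT library preparation, per the labels' protocols. The protocol names no molecular identifiers and keeps no strand. The authors deposited whole-number counts for 42458 rows with 2 columns per mouse, and the submitters' processing notes list mm10 together with DESeq2, RSEM, STAR, Trim Galore and FastQC, without versions or roles. The labels do not say what the 2 columns are; they were taken as repeat runs and summed, so each mouse is 1 replicate. The authors also deposited log2 values, which from the values equal log2 of the summed counts divided by a size factor, plus 1; they served only as an alternative for the spread between mice. Every column had a sample.

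CPM used edgeR 4.0.16 TMM factors in R 4.3.3. Genes reaching 10 counts over all libraries were tested against 10 CPM by an intercept-only quasi-likelihood F test with an offset, computed from the fitted deviances with the tool's Poisson bound, and adjusted by Benjamini-Hochberg over 18522 genes (threshold 0.05). SE is the log2 level over the square root of F. The script was tested on simulated data. limma 3.58.1 (voom), DESeq2 1.42.0, other levels, filters, single runs and leaving out each mouse were alternatives. The 10 pairs used an exact two-sided sign-flip test over 16 sign patterns. Positions and exonic lengths are those of GENCODE M21 (GRCm38, the same assembly as mm10), and promoter windows those of RefSeq. The rule named all 10 members, up to 4 genes with the highest mean CPM of each list, and 1 nearest gene per member. Prph, Slc6a5, Uchl3, Uchl5 and the transgene were named after their values were seen. Other list genes outside the rule are named for low or absent counts: P2rx2, Slc1a2, Col1a1, Col3a1, Cdh5, Igfbpl1, Neurod1, Isl1 and Isl2. Stmn3 and Nsg1 are named because they were called. The members and the 20 lists were chosen with earlier results of these data known. Intervals and floors cover counting error only. Steps outside R used Python 3.11.15 with scipy 1.17.1.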

Additional observations from a re-analysis of the deposited data

Results flagged for a closer look

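In 14 of 70 sets of 4 values, 1 library stood apart from the other three by more than Dixon's test allows at the 95% level; by chance about 1 set in 20 would if values were normal and sets independent. These sets are skewed, overlap and include genes named after their values were seen or for a like profile, so their number cannot be set against that share. Among the members, mouse 3 stood apart in Map2 (63.3 CPM), Ina (23.9 CPM) and Rbfox2 (1.79 CPM), and mouse 4 in the Rbfox3 over Rbfox2 log2 ratio (2.17), where Rbfox2 had no count in mouse 4 and neither gene more than 1 count in mice 1 and 2. The nearest genes of Map2 and Ina, Cd59a (45.8 CPM) and Gm3325 (57.0 CPM), stood apart in mouse 3 too, which follows from how they were chosen. Summed fibroblast markers stood apart in mouse 3 as well (1023 CPM, mostly Dcn), and Mbnl1 was low there (293 CPM). Mouse 4 stood apart in the transgene (1709 CPM) and in summed ependymal markers (85.4 CPM). Mouse 2 alone had counts of Slc18a3 (3.61 CPM, which is also the summed motor neuron list at 3.61 CPM) and Slc6a5 (1.52 CPM), and mouse 1 alone of Prph (0.130 CPM).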

How the results depend on the processing

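The call of Uchl1 above 10 CPM held under every alternative run. The number of the 10 genes called above the level, 2, was 1 under DESeq2 (4 of the 10 have no adjusted p there), 1 under limma-voom and 1 with 20 CPM as the level, and 1 to 2 when each mouse was left out; the lost call was that of Celf4 each time. Without mice 1 and 2, chosen after the data were seen, it was 2. With 5 CPM as the level it was 3, Rbfox1 being added, beside a background of 45.3%. limma-voom called 2 of the 10 genes below 10 CPM (Rbfox2 and Rbfox3), beside 33.3% of all tested genes. Over all tested genes, 123 were called below 10 CPM, against 2049 by DESeq2, 6164 by limma-voom, 2485 without the filter, 30 and 50 in the first and second runs, 0 without mice 1 and 2, and 0 when each mouse was left out. Log2 levels changed sign for genes that were not called or, for Celf4, whose call was lost. limma-voom gave -1.03 for Celf4, -1.30 for Map2 and -0.72 for Nefm. A level of 20 CPM gave -0.50 for Rbfox1, -0.17 for Map2 and -0.94 for Nefm, and 5 CPM gave 0.33 for Ina. Another level shifts every edgeR log2 level by a fixed amount, so the sign changes at 20 and 5 CPM follow from the level chosen. Leaving out each mouse gave -2.01 (without mouse 3) to 1.20 for Map2. For Nefm it gave -0.65 (without mouse 4) to 0.41, with -0.15 without mouse 2. Without mice 1 and 2 Ina was at 0.39. Of the pair ratios, Nefh over Nefl turned to -0.14 with a pseudocount of 1, -0.98 without mouse 1 (up to 1.03 without mouse 2) and -0.40 without mice 1 and 2, and Ina over Nefl to 0.80 without mouse 2 (down to -2.21 without mouse 3) and 1.19 without mice 1 and 2; the cause was not tested. The other 95 of 100 pair values kept their direction. In libraries without a count of Rbfox2 or Rbfox3, the zero fixes the sign of their ratios to genes with counts. Part of this tally was therefore set in advance. The SD between mice was higher in the authors' log2 values, where 1 is added to counts and not to CPM: 3.55 for Rbfox2, 4.30 for Rbfox3, 4.09 for Nefl and 4.96 for Ina. No contrast of conditions, paired or unpaired, was possible because the 4 mice form a single group. In the libraries where Rbfox2, Rbfox3, Nefl or Ina had 0 or 1 count, their values lie under the level of 3 counts. That level covers counting error only, and what else limited these values in libraries of 50 cells was not tested.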
